A study of Mus musculus with 8 samples.

Results

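Markers of the brain's blood vessels and of its connective tissue were followed through 8 RNA-seq libraries of microglia, the macrophages that live in brain tissue. The set held 31 genes of the 46983 in the deposited table. It was made of 19 endothelial genes, 7 genes of mural cells and 5 genes of fibroblasts. They were chosen by symbol as cell type markers, with earlier results of these data known. All 31 had reads, each symbol stood once in the table, and all 31 were among the 22546 genes that passed the filter on low values. The microglia came from dissected corpus callosum, the main white matter tract between the hemispheres, of mice of a FvB/C57BL6 hybrid background. Every mouse carried Cx3cr1-CreER, a Cre recombinase driven in microglia and other macrophages by the Cx3cr1 promoter and switched on by tamoxifen. Mice called WT had 1 loxP-flanked Qk allele (QKLoxP/+) and mice called Qk-KO had both alleles flanked (QKLoxP/LoxP). Tamoxifen was given at 8 weeks of age and was followed by 6 weeks of 0.2% cuprizone in the feed, a toxin that binds copper and leads to loss of oligodendrocytes and myelin. All libraries used here thus come from mice with the Cre recombinase and cuprizone, and the labels do not give the method by which microglia were isolated.

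Brain capillaries are tubes of endothelial cells sealed by tight junctions, which together with specialised transporters form the blood-brain barrier. Pericytes on capillaries and smooth muscle cells on arterioles, jointly called mural cells, wrap these tubes and share a basement membrane with them. Fibroblasts lie around larger vessels and in the meninges and secrete fibrillar collagen. These cells are distinct from microglia, which arise from yolk sac macrophages. Several of the markers are not exclusive to vessels: Flt1 and Eng are also made by macrophages, and Slc2a1, which encodes the glucose transporter GLUT1, by most cells.

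The labels contradicted each other. By sample name, 4 libraries were WT and 4 were Qk-KO, but the genotype field gave the WT genotype to named Qk-KO 1 and 3 and the Qk-KO genotype to named WT 2 and 3. Libraries are therefore called by name, and differences are given between names, not between genotypes. Qk, the gene that the Cre recombinase was to inactivate, overlapped between the names: the named WT libraries, 1 to 4, read 15.50, 15.38, 15.41 and 15.37 on the log2 scale and the named Qk-KO libraries 15.59, 15.40, 15.69 and 15.29. Grouped by the genotype field, Qk overlapped as well, from 15.37 to 15.69 where the field reads WT and from 15.29 to 15.41 where it reads Qk-KO. That overlap came from named WT 4 (15.37) alone, and the other libraries whose field reads WT lay above every library whose field reads Qk-KO. By name, the highest values, 15.69 and 15.59, were in named Qk-KO libraries. Whether the libraries are separate animals is not stated. The p-values below thus rest on library-to-library spread alone, and that spread may be technical. Library size was estimated relative to the smallest library, named Qk-KO 3, and was 1.39 to 1.67 times that of named Qk-KO 3 in the named WT libraries and 1.10 to 1.32 times in the other named Qk-KO libraries. All 15 microglial markers had reads, and their mean log2 value lay between 15.79 and 15.96 in the named WT libraries and between 15.51 and 15.71 in the named Qk-KO libraries, without overlap.

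The 31 markers together took 0.0650% of all mean signal. Scaled per base of exon and to a common total, as in TPM, so that genes can be compared, the level of Slc2a1 was 79.1, that of Flt1 19.0, that of Eng 13.97 and that of Cldn5 10.997. The other 15 endothelial genes lay between 0.302 (Emcn) and 6.37 (Ly6c1). The mural genes lay between 0.220 (Kcnj8) and 4.38 (Acta2), and the 5 fibroblast genes between 0.0446 (Lum) and 0.179 (Col1a1). The median level of all genes tested was 1.75, so that most endothelial and mural markers stood near or above it and every fibroblast marker stood well below it.

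Most markers were lower in the named Qk-KO libraries on average, but no member passed the test, and named Qk-KO 4 was as high as the named WT libraries for many of them. In 29 of 31 members the named Qk-KO mean lay below the named WT mean, a direction taken by 51.2% of all genes tested. The median difference over the members was -0.55 on the log2 scale, beside -0.0044 over all genes tested. Limma called 0 of 31 members at a Benjamini-Hochberg adjusted p under 0.05, and 0.00444% of all genes tested. The adjusted p of the members ran from 0.334 to 0.991. At an unadjusted p under 0.05, limma found Eng and Col1a1, 2 of 31 members, beside 8.26% of all genes. The members share their 8 libraries and are not independent of each other. In bulk libraries such as these, fewer cells of a type and less RNA per cell cannot be told apart.

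**Figure D1:**
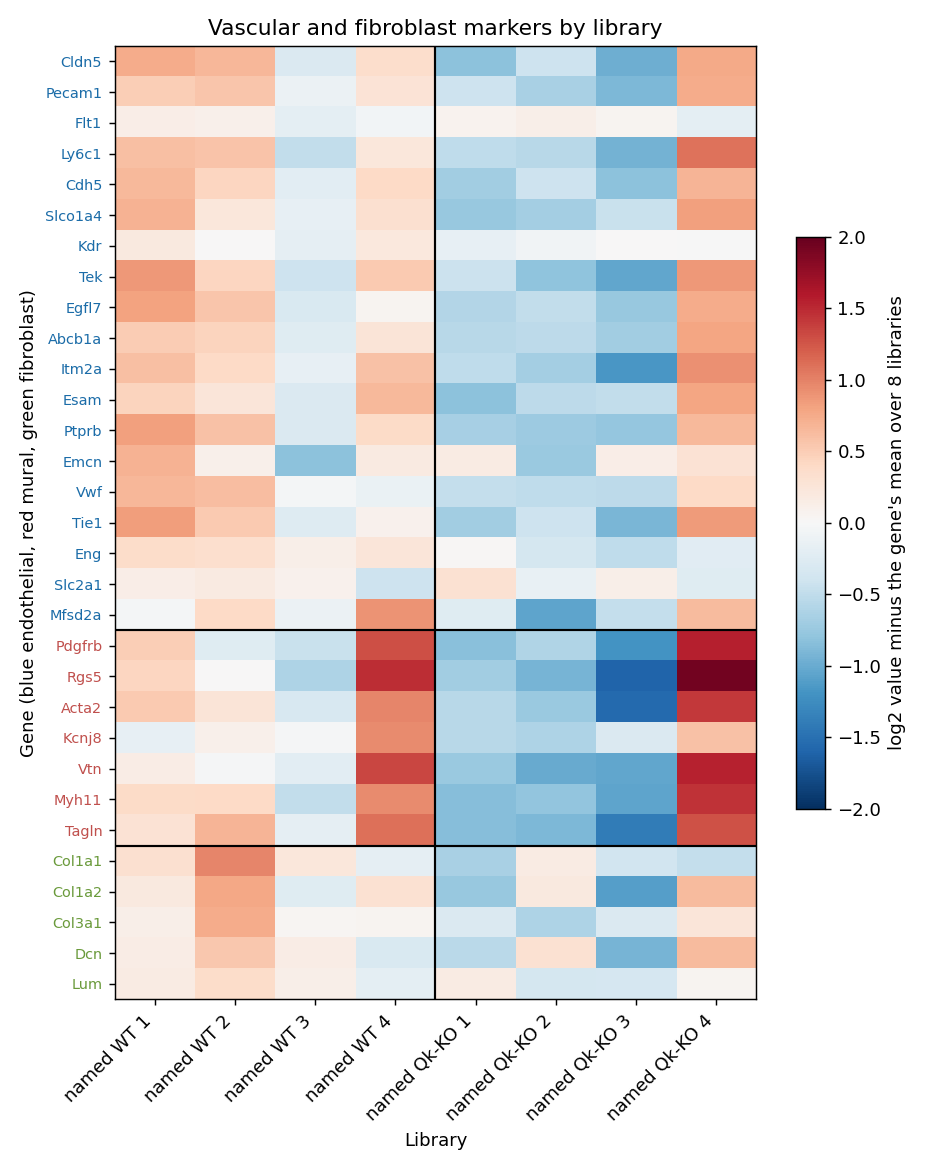
Log2 value of each of the 31 markers (rows) in each of the 8 libraries (columns), minus the gene's mean over the 8 libraries; red is above and blue below that mean, and lines divide the 3 marker groups and the 2 sample names. Named Qk-KO 4 holds the highest value of 16 members and named Qk-KO 3 the lowest of 20.

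Among the endothelial growth factor receptors, the pair that binds vascular endothelial growth factor hardly differed between the names. Flt1, which encodes VEGF receptor 1 (chr5:147561604-147726011, minus strand, mm10), had log2 values of 13.48, 13.45, 13.15 and 13.29 across named WT 1 to 4, and 13.41, 13.46, 13.40 and 13.15 across named Qk-KO 1 to 4. The groups overlapped throughout, with the lowest values in named WT 3 and named Qk-KO 4. The difference was 0.01 ± 0.09 (SE, n = 4 and 4, limma adjusted p = 0.977), with a 95% interval from -0.19 to 0.22. Kdr, which encodes VEGF receptor 2 (chr5:75932827-75978458, minus strand), had values of 10.14, 9.94, 9.77 and 10.15 across the named WT libraries, and 9.77, 9.87, 9.94 and 9.93 across the named Qk-KO libraries. These groups overlapped as well, and the 4 named Qk-KO libraries lay inside the range of the named WT libraries. The Kdr difference was -0.12 ± 0.09 (SE, limma adjusted p = 0.742), with a 95% interval from -0.33 to 0.09. Flt1 had the smallest SD of all members over the 8 libraries, 0.136.

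Tek and Tie1, the receptor pair of the angiopoietin pathway, and Ptprb, the receptor phosphatase that dampens Tek signalling, showed another pattern. Ptprb (chr10:116275523-116389535, plus strand) had log2 values of 11.61, 11.38, 10.50 and 11.17 across named WT 1 to 4, and 10.13, 10.07, 10.01 and 11.44 across named Qk-KO 1 to 4. Named Qk-KO 1, 2 and 3 were lower than every named WT library, and named Qk-KO 4 was higher than all of them but named WT 1. The difference was -0.76 ± 0.37 (SE, limma adjusted p = 0.651), the most negative of the endothelial members. Tek ranged from 8.27 to 9.55 in the named WT and from 7.63 to 9.54 in the named Qk-KO libraries, and Tie1 from 8.06 to 9.16 and from 7.42 to 9.18. Their differences were -0.70 ± 0.44 and -0.59 ± 0.40 (SE).

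Eng, which encodes endoglin, a co-receptor for the BMP and TGF-beta family (ENSMUSG00000026814.16, chr2:32646595-32682669, plus strand), was the only member whose named groups did not overlap. Its log2 values were 11.50, 11.47, 11.25 and 11.37 across named WT 1 to 4, and 11.17, 10.78, 10.63 and 10.92 across named Qk-KO 1 to 4. All 4 named Qk-KO libraries lay below all 4 named WT libraries, which was so for 1 of 31 members and for 2.7% of all genes tested. The difference was -0.53 ± 0.11 (SE, limma adjusted p = 0.334), 1.44-fold on the linear scale. The mean of the microglial markers, given above, was likewise lower in all named Qk-KO libraries, and its part in the Eng difference was not tested. In the authors' deposited table Eng was 0.52 lower on the log2 scale (SE 0.126, adjusted p = 0.00695). It was the only one of 27 members with an adjusted p in the authors' deposited table that was called lower, 1 of 27 beside 0.671% of all genes there. No member was called higher, beside 0.551% of all genes in the authors' deposited table. Kcnj8, Col3a1, Dcn and Lum had no adjusted p in that table. An exon of Fpgs lies over an Eng exon on the opposite strand, and no source used here says whether the authors counted by strand.

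**Figure D2:**
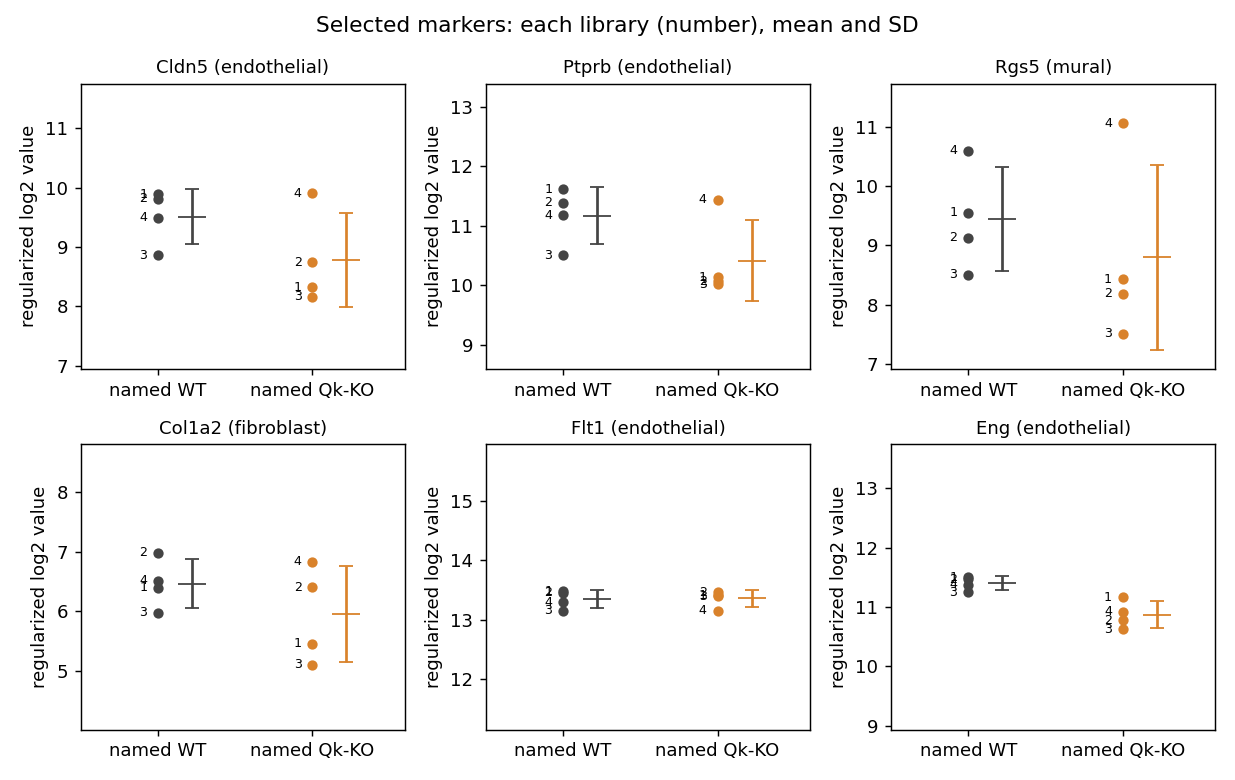
Regularized log2 value (y axis) of 6 markers in each library, numbered by replicate, with the mean and SD of each sample name beside the points; every panel spans the same number of log2 units. Cldn5, Ptprb, Rgs5 and Col1a2 are lowest in named Qk-KO 1 and 3 or in named Qk-KO 1, 2 and 3 and high in named Qk-KO 4, Flt1 is nearly level, and Eng is the one panel in which the names do not overlap.

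The junction and adhesion genes varied as a block. Cldn5, the main sealing protein of brain endothelial tight junctions (chr16:18776847-18778262, plus strand), ranged from 8.86 to 9.89 in the named WT libraries and from 8.17 to 9.91 in the named Qk-KO libraries. Cdh5, the cadherin of endothelial adherens junctions, ranged from 8.11 to 8.97 and from 7.5003 to 9.005. Pecam1, an adhesion molecule of endothelium and platelets, ranged from 9.12 to 9.79 and from 8.32 to 9.97. Esam, another endothelial adhesion molecule, ranged from 7.37 to 8.31 and from 6.84 to 8.45. In all 4 genes the highest value of the 8 libraries was in named Qk-KO 4, beside 17.7% of all genes tested. Named Qk-KO 1, 2 and 3 were below every named WT library in all 4, beside 8.58% of all genes tested. The differences were -0.73 ± 0.40 for Cldn5, -0.63 ± 0.33 for Cdh5, -0.61 ± 0.34 for Pecam1 and -0.53 ± 0.35 for Esam (SE), and no limma adjusted p was below 0.661.

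The transporters divided. Slc2a1 (chr4:119108711-119137983, plus strand) had log2 values of 13.57, 13.62, 13.53 and 13.03 across named WT 1 to 4, and 13.75, 13.30, 13.55 and 13.20 across named Qk-KO 1 to 4. The groups overlapped, and in both of them the library numbered 4 was the lowest. The difference was 0.01 ± 0.16 (SE, limma adjusted p = 0.991), with a 95% interval from -0.35 to 0.37. The other 3 followed the junction genes. Abcb1a, the drug efflux pump P-glycoprotein, ranged from 9.56 to 10.31 in the named WT and from 9.10 to 10.59 in the named Qk-KO libraries. Slco1a4, an organic anion carrier of the barrier, ranged from 8.81 to 9.68 and from 8.23 to 9.81, and Mfsd2a, which carries lysolipids containing docosahexaenoic acid into the brain, from 6.07 to 7.10 and from 5.13 to 6.83. Their differences were -0.49 ± 0.34, -0.53 ± 0.35 and -0.58 ± 0.36 (SE). In all 3 genes, named Qk-KO 1, 2 and 3 lay below every named WT library, beside 8.58% of all genes tested.

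Of the remaining endothelial genes, Vwf, which encodes the clotting protein von Willebrand factor (chr6:125546774-125686679, plus strand), had log2 values of 11.30, 11.25, 10.59 and 10.50 across named WT 1 to 4, and 10.16, 10.13, 10.10 and 11.03 across named Qk-KO 1 to 4. Named Qk-KO 1, 2 and 3 lay within a narrow band below all named WT libraries, and named Qk-KO 4 lay between named WT 2 and 3. The difference was -0.55 ± 0.27 (SE, limma adjusted p = 0.642). Egfl7, a secreted factor of endothelium whose exons overlap those of Agpat2, Gm20532 and the Mir126 genes, differed by -0.55 ± 0.36, the membrane protein Itm2a by -0.71 ± 0.41 and the surface protein Ly6c1 by -0.46 ± 0.45 (SE). Emcn, a sialomucin of veins and capillaries, was the exception: it was lowest at 5.12 (named WT 3) and 5.21 (named Qk-KO 2), and its difference was -0.08 ± 0.34 (SE).

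Leaving aside Flt1, Kdr, Slc2a1, Eng and Emcn, a division made after their values were seen, the other 14 endothelial genes had differences between -0.76 and -0.46 and SDs over the 8 libraries between 0.501 and 0.758. Of the 5 genes set aside, Slc2a1, Flt1 and Eng had the 3 highest levels per base of exon of all 31 members.

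Mural genes had the widest spread. Rgs5, a regulator of G protein signalling typical of pericytes (chr1:169655501-169695813, plus strand), had log2 values of 9.55, 9.13, 8.51 and 10.60 across named WT 1 to 4, and 8.43, 8.19, 7.52 and 11.06 across named Qk-KO 1 to 4. The libraries numbered 4 were the highest of each name, and named Qk-KO 3 was the lowest of all. The lowest and the highest library differed 11.7-fold, the SD over the 8 libraries was 1.22, the largest of all members, and the difference was -0.65 ± 0.82 (SE, limma adjusted p = 0.852). Myh11, the smooth muscle myosin heavy chain (chr16:14194535-14291372, minus strand), had values of 9.45, 9.47, 8.57 and 10.02 across the named WT libraries, and 8.22, 8.28, 8.02 and 10.52 across the named Qk-KO libraries. Again the libraries numbered 4 were highest and named Qk-KO 1, 2 and 3 lay below every named WT library. The Myh11 difference was -0.62 ± 0.59 (SE, limma adjusted p = 0.796).

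Acta2, which encodes smooth muscle actin (chr19:34241090-34255590, minus strand), had log2 values of 8.82, 8.56, 7.98 and 9.28 across named WT 1 to 4, and 7.75, 7.56, 6.74 and 9.72 across named Qk-KO 1 to 4. Its order of libraries was that of Rgs5, and its difference was -0.72 ± 0.61 (SE, limma adjusted p = 0.766). Tagln, an actin-binding protein of smooth muscle, had the most negative difference of all 31 members, -0.94 ± 0.56 (SE, limma adjusted p = 0.685). Its exons overlap Pcsk7 and Gm48529 on the opposite strand. The pericyte receptor gene Pdgfrb differed by -0.54 ± 0.65, Vtn, which encodes the matrix protein vitronectin, by -0.62 ± 0.63, and the potassium channel gene Kcnj8 by -0.44 ± 0.33 (SE). All 7 mural members were lower in named Qk-KO 1, 2 and 3 than in any named WT library, beside 8.58% of all genes tested. In 6 of 7 the highest library was named Qk-KO 4, beside 17.7% of all genes tested. For Kcnj8 it was named WT 4. The authors' deposited table gave smaller differences for most mural genes: its log2 fold changes were -0.07 for Rgs5, -0.19 for Myh11, -0.23 for Acta2, -0.18 for Vtn and -0.15 for Pdgfrb, but -0.43 for Tagln and -0.53 for Kcnj8. The median over the 7 was -0.19 in the authors' deposited table, beside -0.62 by limma on the regularized values. For the endothelial members the authors' deposited table gave a median of -0.45, beside -0.55 by limma.

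The fibroblast collagens followed the libraries differently. Col1a2, a chain of type I collagen (chr6:4504814-4541544, plus strand), had log2 values of 6.40, 6.98, 5.97 and 6.51 across named WT 1 to 4, and 5.45, 6.40, 5.10 and 6.83 across named Qk-KO 1 to 4. Named WT 2 was highest and named Qk-KO 1 and 3 lowest, and the groups overlapped. The difference was -0.52 ± 0.39 (SE, limma adjusted p = 0.729). Col1a1, the other chain of type I collagen (chr11:94936224-94953042, plus strand), had values of 5.75, 6.40, 5.66 and 5.26 across the named WT libraries, and 4.79, 5.59, 5.04 and 4.95 across the named Qk-KO libraries. Named Qk-KO 2 lay above named WT 4, and the other 3 named Qk-KO libraries lay below every named WT library. The Col1a1 difference was -0.68 ± 0.27 (SE, limma adjusted p = 0.562), and named Qk-KO 4 was not high.

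Col3a1, which encodes type III collagen (chr1:45311538-45349706, plus strand), had log2 values of 5.00003, 5.63, 4.92 and 4.94 across named WT 1 to 4, and 4.59, 4.26, 4.60 and 5.13 across named Qk-KO 1 to 4. Named WT 2 stood above the rest and named Qk-KO 4 came second. The difference was -0.48 ± 0.24 (SE, limma adjusted p = 0.651), and the exons of Gm47302 overlap those of Col3a1 on the same strand. The small matrix proteoglycans Dcn (decorin) and Lum (lumican) differed by -0.27 ± 0.35 and -0.23 ± 0.17 (SE). Named WT 2 held the highest value of 4 of 5 fibroblast members and of none of the 26 vascular ones. Mean normalized signal was between 4.44 (Lum) and 82.6 (Col1a2) in this group, and at such levels the regularized values are drawn towards the gene's mean. In the authors' deposited table, log2 fold changes were larger in size for Col1a1 (-0.85), Col3a1 (-0.64) and Lum (-0.47). The authors' deposited table gave smaller ones for Col1a2 (-0.39) and Dcn (-0.17).

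**Figure D3:**
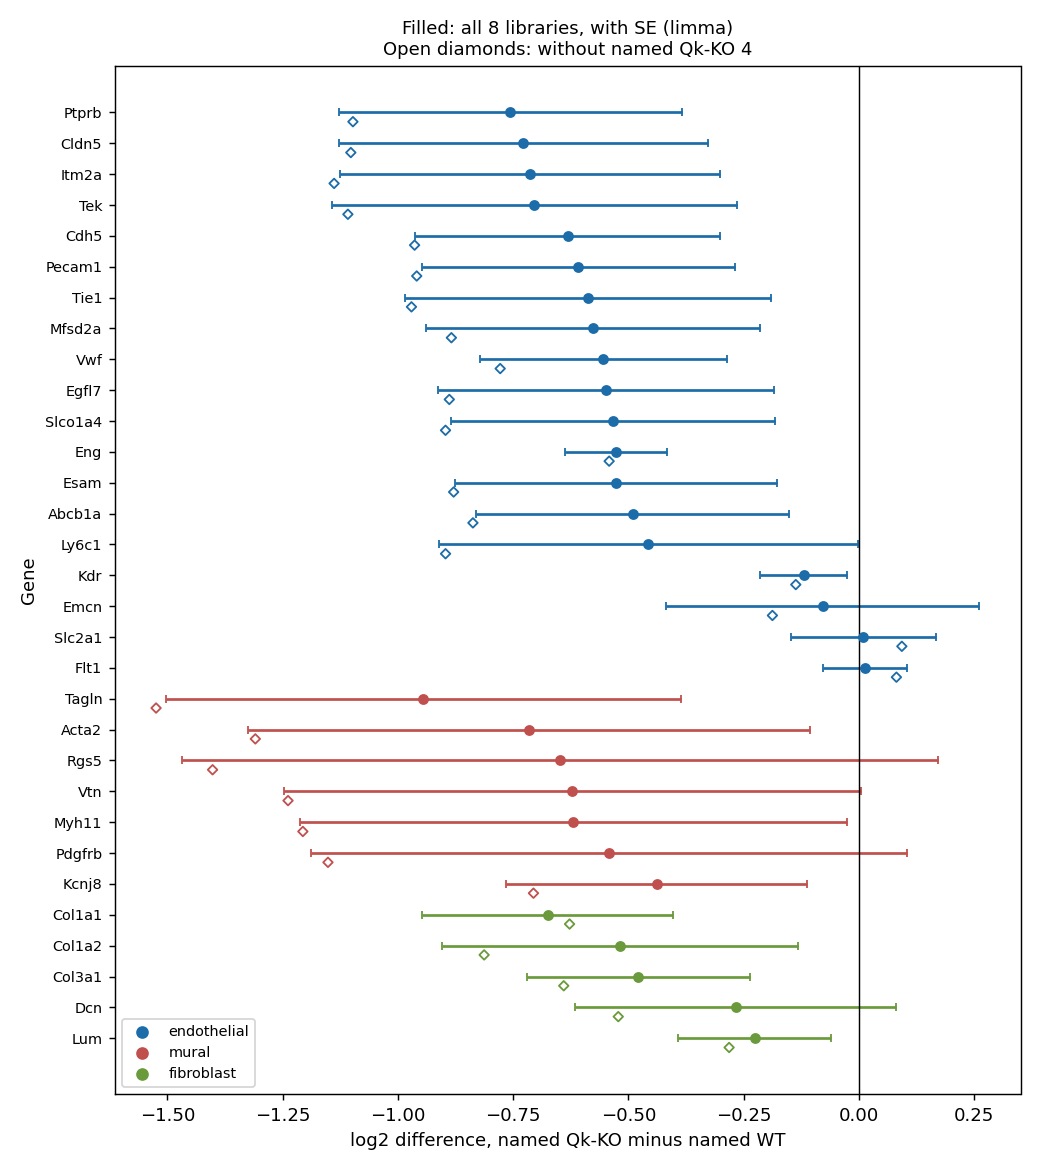
Log2 difference, named Qk-KO minus named WT, of each member from limma over all 8 libraries (filled circles with SE) and without named Qk-KO 4 (open diamonds), coloured by marker group. Over all 8 libraries the circles lie between -0.94 (Tagln) and 0.01 (Flt1), and without that library the diamonds lie between -1.52 (Tagln) and 0.09 (Slc2a1).

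Named Qk-KO 4 stood apart from the other 3 libraries of its name. It held the highest value of 16 of 31 members (51.6%, beside 17.7% of all genes tested), and named Qk-KO 3 the lowest of 20 of 31 (64.5%, beside 16.9%). Named Qk-KO 4 exceeded the mean of named Qk-KO 1 to 3 in 28 of 31 members, with a median excess of 1.37 on the log2 scale, beside 0.00086 over all genes tested. The median excess was 1.37 for endothelial, 2.37 for mural and 0.65 for fibroblast members, and it reached 3.01 for Rgs5. Flt1, Slc2a1 and Col1a1 were the 3 members in which named Qk-KO 4 was below that mean. By relative depth, named Qk-KO 4, at 1.10 times named Qk-KO 3, was the closest to it.

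The gap between the names was wider without that library. With it left out, a choice made after its values were seen, named Qk-KO 1 to 3 lay below every named WT library in 23 of 31 members, beside 8.58% of all genes tested. These were 15 of 19 endothelial, 7 of 7 mural and 1 of 5 fibroblast members. The median difference was then -0.89, with -0.89 for endothelial, -1.24 for mural and -0.63 for fibroblast members. Such a shift was not particular to these members. Over the lists of other cells, described below, this median ran from -1.46 for astrocyte to 0.12 for T and NK cell markers. It was -1.20 for oligodendrocyte precursor, -0.94 for oligodendrocyte and -0.098 for microglial markers. Limma still called 0 of 31 members, beside 0.031% of all genes. At an unadjusted p under 0.05 it found 24 of 31, beside 16.4% of all genes. Named Qk-KO 4 exceeded the mean of the other named Qk-KO libraries in 28 of 31 members. Leaving it out therefore had to lower the named Qk-KO mean in these, and the counts and p-values of this fit are no separate evidence of a difference. The lowest adjusted p was 0.0741, for Pecam1, whose difference was -0.96 ± 0.18 (SE, limma) in that fit. The difference of Eng was nearly the same in both fits, -0.53 with and -0.54 without named Qk-KO 4.

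The members varied more between libraries than most genes did. Their median SD over the 8 libraries was 0.612, beside 0.189 for all genes tested. In 25 of 31 members it lay above 0.500, the upper decile of all genes tested, and the other 6 were Flt1, Kdr, Slc2a1, Eng, Col3a1 and Lum. By group the median SD was 0.611 for endothelial, 0.989 for mural and 0.528 for fibroblast members.

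Grouping by the genotype field gave no called member. Limma called 0 of 31 members and 0% of all genes tested between field Qk-KO and field WT. At an unadjusted p under 0.05 it found 1 of 31, Dcn, beside 2.67% of all genes. Dcn was 0.81 ± 0.25 (SE, limma adjusted p = 0.9995) higher in the libraries whose field reads Qk-KO. The median difference of the 31 members was 0.20 in this grouping, beside 0.0021 over all genes tested, and 25 of 31 were higher in field Qk-KO. Within each field the names were compared without a test, since each side held 2 libraries. Among libraries whose field reads WT (numbers 1 and 4 of the named WT, numbers 1 and 3 of the named Qk-KO libraries), named Qk-KO was lower in 29 of 31 members, with a median difference of -1.11. Among libraries whose field reads Qk-KO (numbers 2 and 3 of the named WT, numbers 2 and 4 of the named Qk-KO libraries), which include named Qk-KO 4, it was lower in 12 of 31 and higher in 19, with a median difference of 0.02. Over all genes tested, the median differences were -0.0098 within field WT and 0.0014 within field Qk-KO. Limma's interaction of name and field called 0 of 31 members, beside 0.0222% of all genes, and at an unadjusted p under 0.05 it found 4 of 31, beside 11.2% of all genes. The lowest adjusted p of that interaction among the members was 0.392.

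Promoter sequence is shown for members that represent the patterns above: Cldn5 and Tek, which varied with most endothelial genes, Flt1, which did not, and Acta2 for the mural genes. RefSeq rows of build GRCm38.p6 were matched for 20 of 31 members, and the 150 bases before the RefSeq start were searched on both strands. The letters GGAA, the core bound by ETS factors, which drive many endothelial genes, were in 16 of 20 members and in 80.8% of 32851 promoters of the same length. The cyclic AMP response element TGACGTCA was in 1 of 20, Flt1, and in 1.36% of all promoters. The CArG box bound by serum response factor, searched as CC, 6 letters of which at most 1 is not A or T, and GG, was in 2 of 20 (Acta2 and Slco1a4) and in 5.11% of all promoters. The 3 longer stretches are chr16:18776697-18776846 on the plus strand for Cldn5, chr4:94739139-94739288 on the plus strand for Tek and chr5:147726012-147726161 on the minus strand for Flt1. The 2 Acta2 boxes are shown with 10 bases on each side, at chr19:34255438-34255467 and chr19:34255388-34255417 on the minus strand. Both lie before the RefSeq start but inside the GENCODE M21 span of Acta2, chr19:34241090-34255590. Capitals mark GGAA or its complement TTCC and TGACGTCA in the longer stretches and the box in the Acta2 sites. A match describes letters only.
Cldn5: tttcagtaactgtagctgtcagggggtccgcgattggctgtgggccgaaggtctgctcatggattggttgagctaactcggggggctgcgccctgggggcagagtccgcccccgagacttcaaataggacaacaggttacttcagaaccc
Tek: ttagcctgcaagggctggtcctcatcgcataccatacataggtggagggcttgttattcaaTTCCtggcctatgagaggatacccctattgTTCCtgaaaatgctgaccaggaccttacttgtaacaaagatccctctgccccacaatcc
Flt1: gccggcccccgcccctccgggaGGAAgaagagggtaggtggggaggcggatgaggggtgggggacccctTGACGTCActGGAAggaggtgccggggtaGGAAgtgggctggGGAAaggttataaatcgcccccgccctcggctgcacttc
Acta2 CArG box 1: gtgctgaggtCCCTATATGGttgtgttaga
Acta2 CArG box 2: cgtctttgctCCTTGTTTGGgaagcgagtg

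Cldn5 held neither the ETS core nor the response element in this window, Tek held 2 ETS cores, and Flt1 held 4 ETS cores and the response element. The windows of Cldn5 and Tek, whose values were low and high in the same libraries, differed in these letters.

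Other genes with roles in these tissues, from lists drawn up by function, were also mostly lower in the named Qk-KO libraries on average. Of the 2 most abundant genes of each list, levels per base of exon ran from 1.12 (Notch3) to 283 (Klf2), beside 10.997 for Cldn5. Which cells in the libraries made these transcripts was not tested. Of 20 other endothelial surface and adhesion genes, 17 had a negative difference and the median was -0.40. The 2 most abundant of them were Cd34, which encodes a sialomucin also found on progenitor cells, and Pltp, a phospholipid transfer protein, with differences of -0.29 ± 0.09 and -0.12 ± 0.11 (SE). Of 19 other barrier junction and transport genes, 16 were negative and the median was -0.16. The most abundant, the carriers Slco2b1 and Slc3a2, differed by -0.32 ± 0.17 and 0.07 ± 0.10 (SE). In the authors' deposited table Jam2, a junctional adhesion molecule, was called lower in named Qk-KO by 0.43 on the log2 scale (SE 0.107, adjusted p = 0.0117). It was the only 1 of these 19 genes so called.

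Acvrl1, which encodes the BMP receptor ALK1 and works with endoglin, was among 24 genes of vascular growth factor, angiopoietin, Notch and Wnt signalling. Its log2 values were 11.43, 11.31, 11.11 and 11.23 across named WT 1 to 4, and 10.81, 10.87, 10.41 and 10.52 across named Qk-KO 1 to 4. As with Eng, all 4 named Qk-KO libraries lay below all 4 named WT libraries, and named Qk-KO 4 was not high. In the authors' deposited table Acvrl1 was 0.62 lower in named Qk-KO (SE 0.127, adjusted p = 0.000524), the only call in its list. By limma the difference was -0.62 ± 0.11 (SE, adjusted p = 0.257). The list's median was -0.13, with 18 of 24 negative, and its most abundant genes, Nrp1 and Pdgfb, differed by 0.01 ± 0.07 and -0.08 ± 0.16 (SE).

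Of 15 endothelial transcription factors 12 were negative, with a median of -0.35, while the most abundant, Klf2 and Klf4, differed by 0.22 ± 0.13 and 0.07 ± 0.45 (SE). Of 14 other mural genes 12 were negative (median -0.43), led in abundance by the proteoglycan gene Cspg4 (-0.27 ± 0.17) and by Notch3 (-0.58 ± 0.60, SE). Of 16 other fibroblast genes tested 14 were negative (median -0.28), led by Fn1, which encodes fibronectin (-0.23 ± 0.25), and Postn, which encodes periostin (-0.32 ± 0.16, SE). A further gene of that list, Dpt, is listed at 0. All 12 basement membrane genes had negative differences, with a median of -0.52, although the most abundant, the laminin chains Lamb2 and Lamc1, differed by only -0.17 ± 0.12 and -0.01 ± 0.05 (SE). Limma called no gene of these 7 lists, and at an unadjusted p under 0.05 it found 2 of 20, 6 of 19, 2 of 24, 2 of 15, 0 of 14, 4 of 16 and 2 of 12, in the order given, beside 8.26% of all genes. The authors' deposited table called none in the surface, transcription factor, mural, fibroblast and basement membrane lists.

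Markers of other cells that do not belong to vessels also varied with the libraries. The summed signal of 11 astrocyte markers ran from 12510 to 32256 in the named WT libraries and from 5053 to 30013 in the named Qk-KO libraries, and that of 10 oligodendrocyte markers from 7622 to 17974 and from 7161 to 15431. In both lists named WT 4 and named Qk-KO 4 were the highest of their names, as for the mural members. The mean log2 value of the oligodendrocyte markers was 8.40 and 8.43 in those libraries and between 6.19 and 6.73 in the other 6. The sum of 7 oligodendrocyte precursor markers was 1770 and 1552 in them and at most 166 in the other named Qk-KO libraries. Named WT 4 was highest for 5 of the 10 neuron markers and named Qk-KO 4 for 3, and their sums ran from 351 to 628 and from 226 to 613. Over all 8 libraries the median difference was -0.86 for astrocyte, -0.25 for oligodendrocyte, -0.51 for precursor and -0.40 for neuron markers. The mean log2 values of the astrocyte, oligodendrocyte and neuron lists were lower in named Qk-KO 1 to 3 than in any named WT library. Those of the precursor list overlapped. The part of these cells in the marker differences was not tested.

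**Figure D4:**
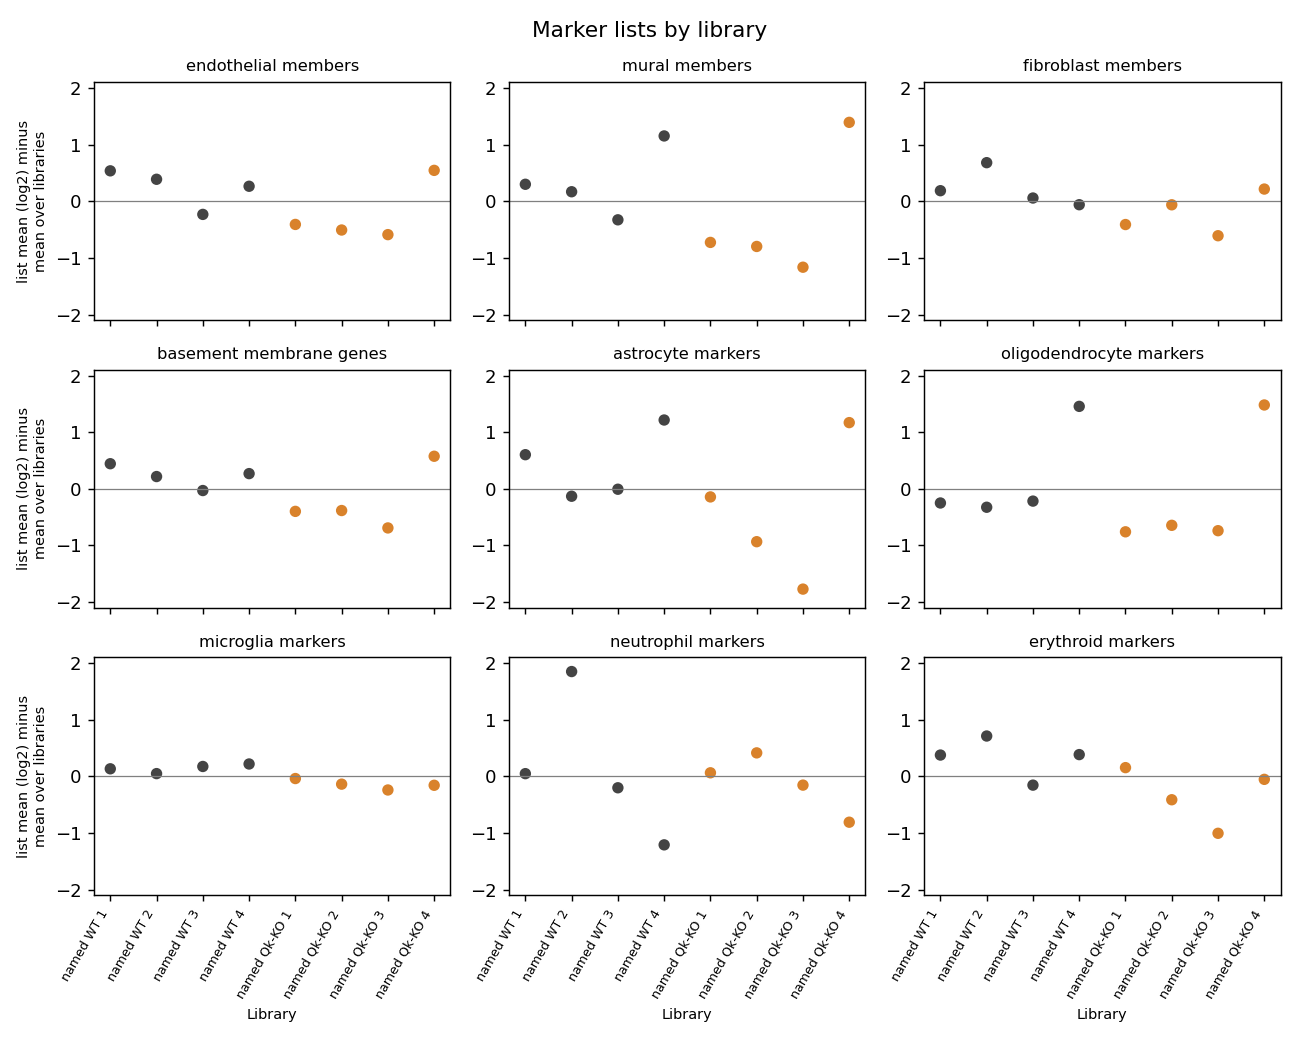
Mean log2 value of each marker list in each library (x axis), minus the list's mean over the 8 libraries (y axis), with named WT in grey and named Qk-KO in orange. Mural, astrocyte and oligodendrocyte lists are highest in both libraries numbered 4, the endothelial list is about level in named WT 1 (9.84) and named Qk-KO 4 (9.85), and the neutrophil and fibroblast lists are highest in named WT 2.

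Markers of blood cells and border-associated macrophages ordered the libraries otherwise. Named WT 2, the highest library for 4 of 5 fibroblast members, was also the highest for 5 of 5 erythroid, 5 of 5 monocyte, 5 of 6 neutrophil and 6 of 8 border-associated macrophage markers. The summed signal of the erythroid markers ran from 12849 to 23347 in the named WT libraries and from 6798 to 16176 in the others, that of the monocyte markers from 697 to 2782 and from 711 to 1448, and that of the neutrophil markers from 35777 to 47074 and from 30633 to 45145. Most of the neutrophil sum was Csf3r, with a mean signal of 36512, beside 1685 for S100a9, the next. The log2 values of Csf3r lay between 14.85 and 15.36, and those of S100a9 between 7.51 and 12.70. For the border-associated macrophage markers the sums were 30510 to 35936 and 36443 to 48647. Most of that sum was Stab1, with a mean signal of 30120, beside 3704 for Mrc1, the next. Stab1 was called 0.44 higher in named Qk-KO in the authors' deposited table (SE 0.0891, adjusted p = 0.000397). By limma, 7 of the 8 genes had a negative difference, and the median was -0.14. The 4 platelet markers summed to between 138 and 201 and between 141 and 236, and the 6 T and NK cell markers to between 87.1 and 169 and between 87.7 and 148. Choroid plexus and ependymal markers, with sums of 9571 to 23731 and 6019 to 19841, were ordered more like most endothelial members. Their mean log2 value was 6.27 to 7.02 in named WT, 5.73 to 5.97 in named Qk-KO 1 to 3 and 6.85 in named Qk-KO 4. In 6 of 8 such genes tested, named Qk-KO 1 to 3 lay below every named WT library, beside 8.58% of all genes. All genes of these lists had reads. Their part in the differences was not tested.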

How the data were processed

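The 8 columns of library values deposited by the authors hold regularized log2 values, which shrink genes of few reads towards their mean. Differences between means of these values deviated from the authors' log2 fold changes in either direction. They were smaller in size for Col1a1 (-0.68 beside -0.85) and larger for Rgs5 (-0.65 beside -0.07). Shrinkage alone would make differences smaller, and the reason for the larger ones was not tested. The mean normalized signal, another column the authors deposited, is an average over libraries scaled for depth. The authors' own comparison is deposited too: per the file headers it consists of log2 fold changes with SEs, a statistic (a score), p-values and adjusted p-values. FastQC, HISAT2, StringTie, DESeq2 and the build mm10 are named by the submitters' processing notes; the annotation release is not given in sources used here. Of 46983 genes, 19497 are listed at 0. Library counts were not used here, so no count test was run. Relative depth came from genes whose reads all fell in 1 library: there 8 times the mean signal is a whole number of reads times the value of 1 read, and between 91.6% and 100% of those values were whole within 1%. Depth is the inverse of the value of 1 read.

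Differences were tested with limma 3.58.1 in R 4.3.3 (trend and robust empirical Bayes, two-sided) on the log2 values of 22546 genes that reached a normalized value of 1 in 4 libraries, with Benjamini-Hochberg adjustment over all of them. The script was tested on simulated data first. Levels per base divide the authors' mean signal by exon length in GENCODE M21 and scale all genes to a common total, as in TPM, and 21 of 31 members had the same versioned identifier there. Alternatives were other filters, variance models and scalings, covariates, a replicate block and each library left out. Values by library are given for the 6 endothelial, 3 mural and 3 fibroblast members of highest mean signal, for the members of largest and smallest SD and for any called member. Of other lists, the 2 most abundant genes and any called gene are named. Acvrl1 is shown by library, and Cldn5 is plotted, because of values seen earlier. The members and lists were chosen with earlier results of these data known. Of 15 microglial markers, 4 were called lower in the authors' deposited table (Cx3cr1, Csf1r, Sall1 and Gpr34).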

Additional observations from a re-analysis of the deposited data

Results flagged for a closer look

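In 8 of the 62 sets of 4 libraries examined (31 members, each in both names), 1 library lay so far from the other 3 that Dixon's gap, the distance to the nearest library divided by the whole range, passed its 95% critical value. Chance flags about 1 in 20 such sets, and over all genes tested 7.27% of the named WT and 7.71% of the named Qk-KO sets passed. Named Qk-KO 4 stood above the other named Qk-KO libraries for Vwf (gap 0.934), Ptprb (0.915), Myh11 (0.895), Abcb1a (0.887) and Vtn (0.882). Named Qk-KO 2 stood below the others of its name for Emcn (0.843). In the named WT libraries, named WT 2 stood above the others for Col3a1 (0.885) and named WT 4 below the others for Slc2a1 (0.837).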

How the results depend on the processing

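No alternative called any member, and the smallest adjusted p of a member in any of them was 0.0741. The median member difference of -0.55 stayed negative throughout, from -0.89 without named Qk-KO 4 to -0.38 without named Qk-KO 3. Of all genes tested limma called 1, between 0 and 7 with 1 library left out (7 without named Qk-KO 4) and 4 without both libraries numbered 4. By the genotype field it called 0, and 0 to 1 with 1 library left out. Members whose names did not overlap numbered 1, from 1 to 23 with 1 library left out (3.70% to 8.58% of all genes) and 24 without both libraries numbered 4 (10.45%); both of these counts were added after the data were seen. The direction turned in 3 of 31 members, all with differences near 0: Flt1 (-0.0514 to 0.0818) and Emcn (-0.36 to 0.154) with 1 library left out, and Slc2a1 (-0.125 to 0.0936), which was -0.0417 without both libraries numbered 4. Centring each library on its median gave a member median of -0.47. The replicate numbers were not taken as pairs, since not every same-numbered correlation of deviations across genes passed 0.1: they were 0.0447, 0.147, 0.246 and 0.456 for numbers 1 to 4. Numbers 1, 3 and 4 of the named WT and numbers 2, 3 and 4 of the named Qk-KO libraries correlated best with their own number, a hint from the data only, and named WT 2 equally with numbers 2 (0.1468) and 3 (0.1469). With a replicate block limma called 1 gene and 0 members (10 at an unadjusted p under 0.05, beside 2924 of 22546 genes), and the median stayed at -0.55. Low values limit the fibroblast members most.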
